A study of Rattus norvegicus with 2 samples.

Results

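Hsf1, Ahsa1, Dnajb4 and Hspd1 are 4 genes of the protein folding machinery, described here in H9c2 cells at a control and a raised phosphate level. Hsf1 encodes heat shock factor 1, a transcription factor, Ahsa1 a cochaperone that stimulates the ATPase of HSP90, Dnajb4 a J-domain partner of HSP70, and Hspd1 the chaperonin HSP60. HSP60 works in the mitochondrial matrix and HSF1 is a regulator, so only Ahsa1 and Dnajb4 are cytosolic cochaperones. The rows were found by Entrez identifier (79245 for Hsf1, 681996 for Ahsa1, 295549 for Dnajb4 and 63868 for Hspd1), and all 4 were among the 8039 entries listed for each library. The genes were chosen by the difference between these same 2 libraries, so that difference is given as a description.

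H9c2 is a myoblast line from embryonic rat heart. The series measured its RNA by sequencing after 12 h without serum. The control library came from cells given 0.9 mM phosphate and the high phosphate library from cells given 2.5 mM. There was 1 library per phosphate level, so no value below has a replicate error and the conditions could not be tested against each other. The deposited values are FPKM, fragments scaled by the length of the transcript and by the mapped total, so levels can be compared between genes.

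In unstressed cells HSP70 and HSP90 chaperones hold HSF1 inactive. When misfolded proteins occupy those chaperones, HSF1 forms trimers and binds heat shock elements, arrays of inverted GAA units, in the promoters of chaperone genes. HSP70 receives its substrates from J-domain proteins, HSP90 is timed by cochaperones such as AHSA1, and HSP60 encloses mitochondrial proteins in a chamber capped by HSP10, the product of Hspe1. Cardiac and skeletal muscle cells rely on this system to fold and keep contractile and mitochondrial proteins.

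Of the 7803 entries with a usable identifier, 4366 had a mean of at least 1 FPKM over both libraries and are called measured; the 4 genes are all among them. Differences are log2((high + 1)/(control + 1)) of FPKM as deposited. The number of reads behind a value is unknown. A gene is called higher or lower by the 25% rule where the larger FPKM + 1 exceeded the smaller by at least 25%, which is 0.322 on the log2 scale. By this rule 17.4% of measured genes were higher in the high phosphate library and 12.0% lower. At least 2-fold higher were 1.76% and at least 2-fold lower 0.87%. Of the 4 genes, Dnajb4 and Hspd1 were higher and Hsf1 and Ahsa1 lower by the 25% rule, while none was 2-fold apart. Because the difference was used to choose the genes, nothing is read from this count.

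The control library held Hsf1 at 15.1 FPKM and the high phosphate library held it at 11.0 FPKM, a change in listed level of -27.4% and a log2 ratio of -0.43. Hsf2, the related factor that can form mixed trimers with HSF1, was listed at 7.70 and 6.95 FPKM (log2 ratio -0.13). Hsbp1, whose small coiled-coil product binds HSF1 trimers and restrains them, stood on the other side, at 75.8 and 92.5 FPKM (log2 ratio 0.29). The FPKM ratio of Hsf1 to Hsbp1 was 0.2 in the control and 0.119 in high phosphate. A ratio of this kind lies within 1 library and does not depend on how the libraries were scaled. In these bulk samples, fewer cells with a transcript and less RNA per cell cannot be told apart.

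Ahsa1 was the most abundant of the 4 genes in both libraries. The control held 149 FPKM and the high phosphate library 100.4 FPKM (log2 ratio -0.57). Its partner Hsp90ab1, the constitutive cytosolic HSP90, was listed at 869 and 926 FPKM (log2 ratio 0.09). The ratio of Ahsa1 to Hsp90ab1 was therefore 0.172 in the control and 0.108 in high phosphate, 1.59 times higher in the control. Stip1 encodes the scaffold that links HSP70 to HSP90. Ahsa1 relative to Stip1 stood at 0.536 and 0.399, so Ahsa1 was also the lower of these cochaperones relative to the other in the high phosphate library. The inducible HSP90 gene Hsp90aa1 was not analysed here.

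Dnajb4 had 20.8 FPKM at control phosphate and 28.2 FPKM at high phosphate (log2 ratio 0.42), so the treated library was the higher. Hspa8, the constitutive cytosolic HSP70 that J-domain proteins serve, was listed at 899 and 787 FPKM (log2 ratio -0.19). There were 43.2 FPKM of Hspa8 for each FPKM of Dnajb4 in the control and 27.9 in high phosphate. Dnajb1, the J-domain protein most often used as a heat shock marker, was listed at only 0.47 and 0.01 FPKM. A value near 0 can be a failed estimate, so the listing does not show that the gene is silent. The inducible HSP70 gene Hspa1a was not analysed here.

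Hspd1 was the least abundant of the 4, with 6.63 FPKM at control phosphate and 9.60 FPKM at high phosphate (log2 ratio 0.47). Its cochaperonin Hspe1 was far above it, at 510.1 and 435 FPKM, and differed the other way (log2 ratio -0.23). The ratio of Hspe1 to Hspd1 was 76.9 in the control and 45.3 in high phosphate. Hspa9, the HSP70 of the mitochondrial matrix, was listed at 63.9 and 54.5 FPKM, also lower in high phosphate (log2 ratio -0.23). The NCBI table for the assembly GRCr8 names 20 pseudogenes of Hspd1 and 2 further genes named as similar to it, none of them listed in these files. The sources used here do not say how reads shared between such copies were assigned, so the level of Hspd1 is uncertain, and the part of shared reads in its low value was not tested. For Hsf1, Ahsa1 and Dnajb4 the same table names 0 pseudogenes.

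**Figure D1:**
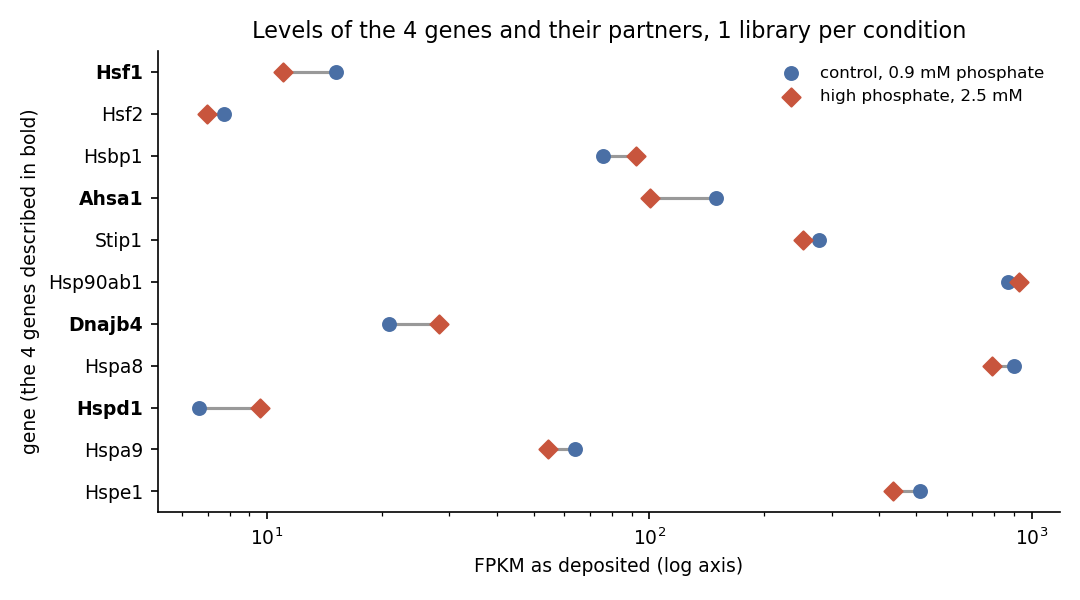
Listed FPKM of the 4 genes (bold) and 7 partner genes, on a log axis, with the control library as circles and the high phosphate library as diamonds (1 library each, no error bars). Hsf1 and Ahsa1 lie to the left of their control value in high phosphate, Dnajb4 and Hspd1 to the right, and Hspe1 at 435 to 510.1 FPKM stands far from Hspd1.

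The order of levels was the same in both libraries: Ahsa1, then Dnajb4, Hsf1 and Hspd1. Without replicates, whether neighbours in that order differ beyond their spread cannot be said; the closest pair was Hsf1 and Hspd1 in high phosphate, with 11.0 and 9.60 FPKM. Hsf1 stood at 2.28 times Hspd1 in the control and 1.14 times in high phosphate. Ahsa1 stood at 7.18 times Dnajb4 in the control and 3.56 times in high phosphate, and at 22.5 and 10.5 times Hspd1. Dnajb4 stood at 3.14 and 2.94 times Hspd1, and Hsf1 at 0.101 and 0.109 times Ahsa1. The 4 genes were chosen by their difference, so how far these ratios move follows from that choice. In rank, Ahsa1 was 284th of the measured genes in the control and 458th in high phosphate, Hsf1 2092nd and 2449th, Dnajb4 1740th and 1434th, and Hspd1 2938th and 2591st.

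The spread of log2 ratios depends on level, so each gene was placed in 1 of 5 bins of mean FPKM with near equal numbers of measured genes. Ahsa1 stood farthest out: in its bin (52 to 6370 FPKM, 874 genes, median log2 ratio 0.10) 9 genes, or 1.03%, had a lower ratio. For Hsf1, in the bin from 9.32 to 20.4 FPKM, 7.33% of 873 genes were lower. For Dnajb4, from 20.4 to 52 FPKM, 7.45% of genes were higher, and for Hspd1, from 3.62 to 9.31 FPKM, 10.9% were higher. Hspd1 thus lay inside the central range of its bin, whose lowest and highest 10% began at -0.41 and 0.50, while the other 3 lay just outside or beyond theirs. The bin of Ahsa1 is wide around its mean of 124.9 FPKM, so the match in level is loose for this gene. These positions describe 2 libraries and carry no error. Because the 4 genes were chosen by this same difference, outlying positions follow from that choice and nothing is read from them.

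**Figure D2:**
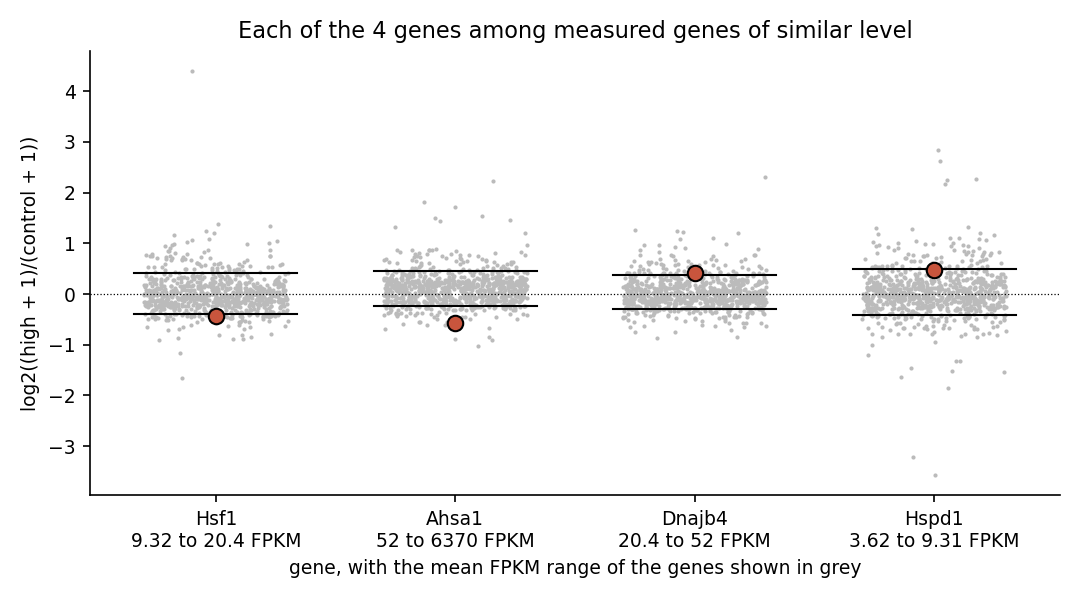
Log2 ratio of each gene (red) with all measured genes of the same bin of mean FPKM (grey, 873 or 874 genes per column; horizontal jitter only), and black lines at the limits of the lowest and highest 10%. Ahsa1 lies below its lower line of -0.24, Hsf1 and Dnajb4 just outside -0.39 and 0.38, and Hspd1 just inside 0.50.

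The measured genes nearest to each of the 4, by distance of log2(FPKM + 1) over the 2 libraries, belong to none of the chaperone lists described below. For Hsf1 they were Thap7, at 15.0 and 11.1 FPKM, and Mettl5, at 14.6 and 10.9 FPKM (distances 0.018 and 0.046). For Ahsa1 they were the MAP kinase phosphatase Dusp1, at 138 and 97.6 FPKM (0.12), and the ribosomal protein gene Rpl34, at 133 and 94.1 FPKM (0.19). For Dnajb4 they were Nudt2, at 21.0 and 28.1 FPKM (0.014), and Pde6d, at 21.3 and 28.9 FPKM (0.045). For Hspd1 they were Rassf7, at 6.85 and 9.75 FPKM (0.046), and St3gal2, at 6.25 and 9.39 FPKM (0.079). With 2 libraries, a near match says only that a pair of values is alike.

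Protein-coding genes next to the 4 on the chromosome, by the order of gene starts in GRCr8, were looked up after values had been seen. Of the 8 such neighbours, 5 were listed. Scx, next to Hsf1, had 0.52 and 0.49 FPKM and was not measured. Dgat1, next to Hsf1, had 32.1 and 25.7 FPKM (log2 ratio -0.31), and Gipc2, next to Dnajb4, had 2.56 and 1.73 FPKM (-0.38). Coq10b and Hspe1 flank Hspd1, and both were lower in high phosphate (log2 ratios -0.22 and -0.23) where Hspd1 was higher. Of these 4 measured neighbours, Dgat1 alone differed in the direction of the gene beside it. The sources used here do not give the strand settings of the authors' counting, so reads from touching genes cannot be told apart.

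HSF1 acts through heat shock elements, so promoters were searched for them. The RefSeq promoter table (assembly GRCr8, 250 bases before to 50 after a start) held Ahsa1 and Hspd1; Hsf1 and Dnajb4 had no entry. The windows were searched for a pair of inverted units, GAANNTTC or TTCNNGAA; each motif reads the same on both strands, and neighbouring pairs can overlap by a unit. Of all 33469 windows, 15.9% held a pair, and 0.798% held 3 alternating units with 2 bases between them. The Ahsa1 window held neither, which says only that these letters are not in it. The Hspd1 and Hspe1 windows lie head to head and share 211 bases, and the shared stretch holds 4 alternating units. The 250 bases before the start of each gene are shown because one of the pair carries the element and the other does not, with units that belong to a pair in capitals. They lie at chr6:112644233-112644482 (plus strand) for Ahsa1 and chr9:64084038-64084287 (minus strand) for Hspd1.
Ahsa1: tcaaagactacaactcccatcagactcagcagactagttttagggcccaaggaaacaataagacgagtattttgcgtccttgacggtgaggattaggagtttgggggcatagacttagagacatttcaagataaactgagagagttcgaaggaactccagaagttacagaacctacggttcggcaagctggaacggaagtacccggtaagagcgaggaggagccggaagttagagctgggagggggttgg
Hspd1: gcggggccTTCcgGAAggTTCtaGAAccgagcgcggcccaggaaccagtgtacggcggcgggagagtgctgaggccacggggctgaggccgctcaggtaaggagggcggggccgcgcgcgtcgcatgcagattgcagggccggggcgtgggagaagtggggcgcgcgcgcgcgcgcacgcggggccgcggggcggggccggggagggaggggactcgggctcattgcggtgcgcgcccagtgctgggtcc

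The element of Hspd1 runs from base -242 to -225 counted from its start, and the same site runs from -65 to -48 before Hspe1, at chr9:64084256-64084285 with 6 flanking bases on each side. It is set here beside elements of the HSP70 gene Hspa8 (first base -55), the collagen chaperone Serpinh1 (-35) and the HSP90 cochaperones Fkbp4 (-137) and Stip1 (-8), read on the strand of each gene, so that the spacing of the units can be compared.
Hspd1: ggggccTTCcgGAAggTTCtaGAAccgagc
Hspe1: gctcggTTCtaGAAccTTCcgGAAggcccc
Hspa8: gaacccTTCtgGAAggTTCtaagac
Serpinh1: ccaactTTCcaGAAgtTTCttagga
Fkbp4: tctctaGAAagTTCtccgct
Stip1: agtaggTTCcaGAAggcggc

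The genes on these lines, picked after values were seen, did not differ in 1 direction. Their mix does not stand for all 20 measured chaperone list genes with a pair, of which 16 were lower and 4 higher. Hspd1 and Serpinh1 were higher in high phosphate, Serpinh1 at 1426 and 1693 FPKM (log2 ratio 0.25). Hspe1 and Hspa8 were lower, as were Fkbp4, at 70.1 and 58.6 FPKM (-0.25), and Stip1, at 279 and 252 FPKM (-0.15). Hspd1 and Hspe1 share 1 element and differed in opposite directions.

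Of the list of stress-induced HSF1 targets, 14 of 24 windows held a pair (58.3%) and 7 held 3 alternating units (29.2%). Among measured genes of all chaperone lists, 20 had a pair in the window, and 16 of these were lower and 4 higher in high phosphate by any amount (median log2 ratio -0.20). By the 25% rule 2 of the 20 were lower, Pih1d1 and Chordc1, and 2 higher, Hspd1 and Dnajc27, the last with a ratio at the limit itself. Of 44 without a pair, 27 were lower and 17 higher by any amount (median -0.04), and by the 25% rule 6 were lower and 7 higher; of the 15 with no window in the table, 8 were lower and 7 higher. Over all measured genes with a window, 52.2% of the 410 with a pair and 49.6% of the 3199 without one were lower by any amount. By the 25% rule 73 of the 410 were higher and 64 lower. Of the 3199, 543 were higher and 376 lower by that rule, and of all measured genes 17.4% and 12.0%. The 4 chaperone list genes with a pair that were higher by any amount were Hspd1, Dnajc27, Serpinh1 and Spg7. Whether the promoter letters have a part in the split was not tested.

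**Figure D3:**
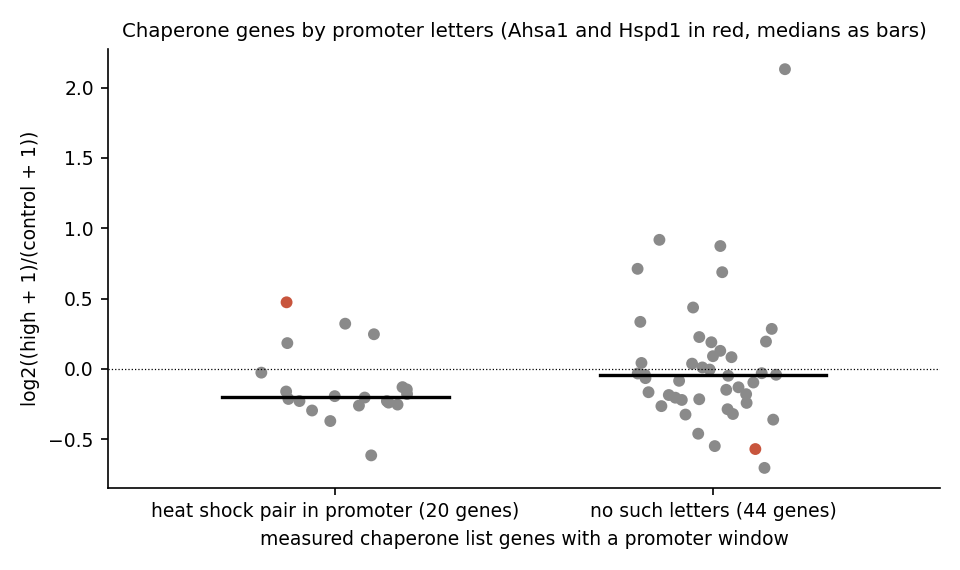
Log2 ratio of the measured genes of the chaperone lists with a promoter window, split by whether the window holds a heat shock pair (20 genes) or not (44 genes), with bars at the medians of -0.20 and -0.04. Hspd1 (red, left) is the highest gene with a pair, and Ahsa1 (red, right) is among the lowest without one.

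The wider chaperone system was described with 10 lists that hold 178 genes, of which 100 were listed and 79 measured. Of the 79, 51 were lower (64.6%) and 28 higher in high phosphate, where 49.4% of all measured genes were lower and 50.5% higher. The median log2 ratio of the lists together was -0.08, against 0.00 for all measured genes. By the 25% rule 13 were higher (16.5%) and 11 lower (13.9%), near the 17.4% and 12.0% of all measured genes. Hsf1, Ahsa1, Dnajb4 and Hspd1 are 4 of the 24 that passed the 25% rule.

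Cochaperones of HSP90, the class of Ahsa1, were lower by any amount in 14 of 18 measured cases (77.8%, median log2 ratio -0.15). Of all measured genes 49.4% were lower. By the 25% rule 4 cochaperones were lower (22.2%) and 1 higher (5.56%), against 12.0% and 17.4% of all measured genes. Their listed FPKM summed to 1138 in the control and 969.4 in high phosphate. Below Ahsa1 stood Ppid, a cyclophilin that docks on HSP90, at 39.8 and 24.1 FPKM (-0.70), and Pih1d1, an adaptor of the R2TP complex, at 13.0 and 8.13 FPKM (-0.61). Chordc1, a cochaperone induced by heat, followed at 28.0 and 21.5 FPKM (-0.37). Among the 4 that were higher, Sugt1 and Nudcd2 had log2 ratios of 0.04, and Ruvbl2 was listed at 0 and 3.38 FPKM, where the 0 can be a failed estimate. Of the HSP90 genes themselves, the endoplasmic reticulum form Hsp90b1 was listed at 374 and 685 FPKM (0.87).

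Of the HSP70 family 5 of 6 measured genes were lower by any amount, where 49.4% of all measured genes were. By the 25% rule 0 of the 6 were lower and 1 was higher (16.7%), against 12.0% and 17.4% of all measured genes. The lower values include Hspa4 at 66.9 and 57.5 FPKM (log2 ratio -0.21), Hspa8 and Hspa9. The 1 that was higher was Hspa5, the HSP70 of the endoplasmic reticulum, at 210 and 344 FPKM (0.71). Of 6 measured exchange factors and adaptors of HSP70, 3 were higher and 3 lower. Bag3, a stress-induced partner, was listed at 115 and 102 FPKM (-0.18) and Bag1 at 55.1 and 45.8 FPKM (-0.26). Bag2 was listed at 23.5 and 29.9 FPKM (0.34) and Grpel1, the exchange factor of mitochondrial HSP70, at 3.21 and 4.70 FPKM (0.44).

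Dnajb4 stood among 15 measured J-domain genes, of which 8 were higher and 7 lower by any amount (median log2 ratio 0.08), and 4 higher and 3 lower by the 25% rule. Above it were the mitochondrial Dnajc15, at 24.4 and 34.3 FPKM (0.47), and the ribosome-associated Dnajc2, at 0.89 and 1.71 FPKM (0.52). At the other end were Dnajc22, at 3.71 and 1.95 FPKM (-0.68), and Dnajc11 of the mitochondrial membrane, at 15.7 and 10.9 FPKM (-0.49). By the mean of both libraries the most abundant was Dnajb11 of the endoplasmic reticulum, at 94.2 and 99.8 FPKM (0.08). In the control library Dnaja2 was above it, at 97.8 FPKM against 90.9 FPKM in high phosphate (-0.10). After the libraries were brought to the same sum, 10 of the 15 were lower and the median was -0.09, so this list has no direction that holds under both scalings.

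Hspd1 stood among 12 measured mitochondrial chaperones and proteases, of which 5 were higher and 7 lower by any amount (median -0.04), and 3 higher and 1 lower by the 25% rule. Dnajc15, Hspd1 and Grpel1 had the highest log2 ratios (0.475, 0.474 and 0.437), followed by the matrix protease Lonp1, at 64.7 and 80.4 FPKM (0.31). In listed level the first of these changed by 40.6%, Hspd1 by 44.8% and Grpel1 by 46.4%, so their order depends on the pseudocount. Bcs1l, an assembly factor of respiratory complex III, was lowest, at 16.2 and 12.4 FPKM (-0.36).

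The cytosolic chaperonin TRiC, the counterpart of HSP60 in the cytosol, was lower in all 6 measured subunits by log2 ratios from -0.46 to -0.20. Of all measured genes 49.4% were lower by any amount. Among the 6 subunits 1, Tcp1, passed the 25% rule. Over the whole list of chaperonin, prefoldin and cofactors, 1 of 13 measured genes was lower by that rule (7.69%) and 0 higher, against 12.0% and 17.4% of all measured genes. Tcp1 was listed at 90.7 and 65.7 FPKM (-0.46), Cct3 at 192 and 154 FPKM (-0.32) and Cct5, the most abundant, at 245 and 213 FPKM (-0.20). Prefoldin, which hands substrates to TRiC, had log2 ratios from -0.06 to 0.23 in its 5 measured subunits, with Pfdn1 at 68.4 and 80.3 FPKM and Pfdn5 at 165 and 188 FPKM the highest.

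The list of stress-induced HSF1 targets, to which Ahsa1, Dnajb4 and Hspd1 belong, was written with 31 genes. Of these 19 were listed and 18 measured (median -0.20), so the counts do not cover the whole list. By any amount 13 were lower (72.2%) and 5 higher, where 49.4% of all measured genes were lower. By the 25% rule 4 were lower (22.2%) and 3 higher (16.7%), against 12.0% and 17.4% of all measured genes. Ahsa1 had the lowest log2 ratio, followed by Mrpl18, a mitochondrial ribosomal protein gene, at 15.7 and 10.5 FPKM (-0.55). In listed level Mrpl18 changed by -33.6% and Ahsa1 by -32.8%, so their order depends on the pseudocount. Highest was Hmox1, the heme oxygenase that is also a target of NRF2, at 70.8 and 140 FPKM (0.98), and then Hspd1. Summed over the listed genes of this list the FPKM were 4974 and 4981, so the sum did not follow the count; Serpinh1, its most abundant gene, was higher. Among 5 measured regulators, Plk1, a mitotic kinase that phosphorylates HSF1, was listed at 45.3 and 73.6 FPKM (0.69), and Vcp, a chaperone of ubiquitylated proteins, at 158 and 145 FPKM (-0.13).

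**Figure D4:**
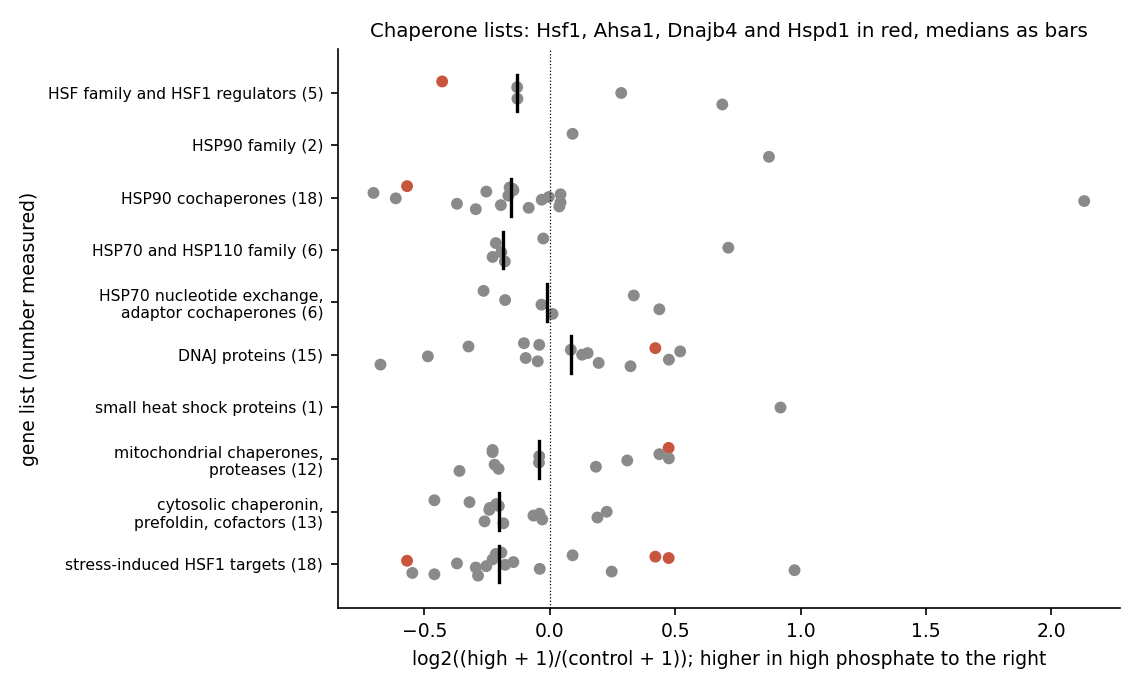
Log2 ratios of measured genes in the 10 chaperone lists, 1 point per gene, with Hsf1, Ahsa1, Dnajb4 and Hspd1 in red and bars at the medians of lists with at least 5 measured genes. Most points of the HSP90 cochaperone and cytosolic chaperonin lists lie left of 0, and the J-domain list straddles it. A gene in several lists appears in each.

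The size and, for the lists, the balance of these differences depended on how the libraries were scaled. FPKM of all entries summed to 307622 in the control and 346857 in high phosphate, a ratio of 1.128. With both libraries brought to an equal total, all measured genes had a median log2 ratio of -0.15, and 67.8% of them were lower. By the 25% rule 453 were then higher and 1127 lower, against 759 and 525 as deposited. Under that scaling Ahsa1 stood at -0.74 and Hsf1 at -0.59, while Dnajb4 at 0.26 and Hspd1 at 0.321 no longer passed the 25% rule, Hspd1 narrowly. Every rescaling tried divides high phosphate by more than 1 relative to the control, so Hsf1 and Ahsa1 could not turn and only Dnajb4 and Hspd1 could; both stayed higher. Of the genes on the chaperone lists 59 of 79 were lower by any amount under the same sum. Of those with a heat shock pair 16 of 20 were lower, as before. Of those without a pair 33 of 44 were lower, against 27 as deposited, so the contrast between these counts depended on the scaling.

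**Figure D5:**
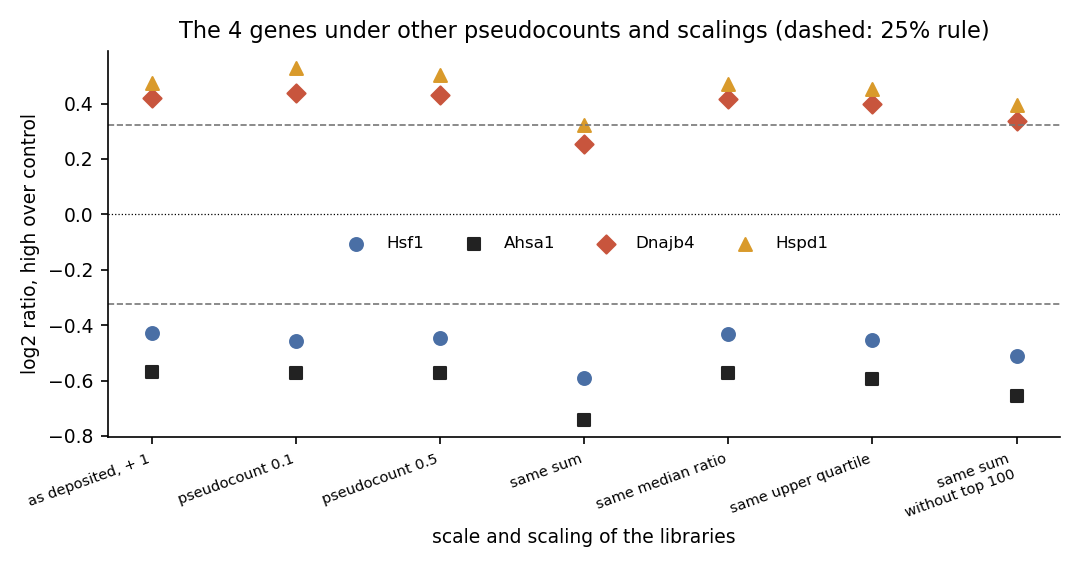
Log2 ratio of the 4 genes as deposited with an added 1, with other pseudocounts, and after 4 ways of bringing the libraries to 1 scale; dashed lines mark the 25% rule. Dnajb4 and Hspd1 stay above 0 and Hsf1 and Ahsa1 below it in each column, and the same sum lowers all 4.

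The identity of the cells could be checked only in part. Of 13 cardiac muscle markers, 3 were listed, with Myh7 and Ryr2 at 0 in both libraries and Nppa at 0.21 and 0.23 FPKM. Of 11 skeletal myoblast markers, 7 were listed, with the intermediate filament gene Des at 129 and 153 FPKM, Myod1 at 6.11 and 1.59 FPKM and Myog at 0.13 and 0.06 FPKM. Chrna1, Tnnt1, Tnnt3 and Mymk lay at 0.75 FPKM or less in both libraries. Of 10 fibroblast markers, 7 were listed and 6 measured, led by S100a4 at 3291 and 3249 FPKM (log2 ratio -0.02). Col3a1 had 489 and 844 FPKM, Thy1 232 and 317, Dcn 5.11 and 8.63, and Lum 3.63 and 6.97. Col1a1 had only 0.79 and 1.80 FPKM, and Pdgfra was listed at 0 in both libraries. By any amount 5 of the 6 measured were higher in high phosphate, where 50.5% of all measured genes were, and S100a4 was not among the 5. The 6 listed endothelial and immune markers lay at 1.38 FPKM or less. The part of cell composition in the values of the 4 genes was not tested.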

How the data were processed

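RNA of H9c2 cells was measured in 1 control and 1 high phosphate library. The deposited values are the authors' FPKM, per the file headers, with 2 decimals. Build Rnor_6.0 and the tools TopHat2 2.1.1, Cufflinks 2.2.1, Cuffdiff and bcl2fastq are named in the submitters' processing notes. The sources used here do not give the step of each tool, the annotation, strand settings or the treatment of shared reads, and the depth is unknown.

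Identifiers were matched to symbols with an NCBI table of GRCr8 (7746 of 7803 matched); 236 entries without a usable identifier (8.2% of control FPKM and 8.56% of high phosphate FPKM) were not compared. Differences are log2 ratios with a pseudocount of 1, for genes whose mean FPKM reached 1. No test was possible. The rescaling to the same median ratio and the counting of fold calls were checked on noise-free simulated libraries without a pseudocount. That check did not cover the pseudocount of 1 or the other rescalings.

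The 4 genes, the lists and the 25% rule were chosen with earlier results of these data known. Genes named are the 4, their partners, the 2 nearest genes to each of the 4, and marker genes. Also named are the 2 highest, 2 lowest and most abundant measured genes of each chaperone list with at least 5 measured. Chordc1, Lonp1, Dnaja2, Dnajb1, Spg7, Dnajc27, the neighbours, the genes of the promoter lines and those listed near 0 were added after values were seen. The split of TRiC and prefoldin subunits from their list was not among the planned comparisons. Alternatives were 2 pseudocounts, 4 rescalings, 3 filters, a 50% rule and lists without the 4 genes. Python 3.11.15, numpy 2.4.6, pandas 2.3.3 and matplotlib 3.10.9 were used.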

Additional observations from a re-analysis of the deposited data

How the results depend on the processing

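Over the 6 settings of pseudocount and scaling log2 ratios ran from -0.59 to -0.43 for Hsf1, -0.74 to -0.57 for Ahsa1, 0.26 to 0.44 for Dnajb4 and 0.32 to 0.53 for Hspd1, the main value included. A pseudocount cannot turn a direction, and the 4 rescalings, by 1.003 to 1.128, only lower the ratios, so no turn was possible for Hsf1 and Ahsa1. After rescaling to the same sum, Dnajb4 (0.255) and Hspd1 (0.321) no longer passed the 25% rule, by which 453 genes were higher and 1127 lower, 1 HSP90 cochaperone was higher, and the median of all chaperone lists was -0.23. Without the 100 most abundant genes in the sum, 792 genes were lower by the 25% rule and again 1 HSP90 cochaperone was higher. From a mean of 5 FPKM, 486 genes were higher and 326 lower by the 25% rule, 41 at least 2-fold higher and 8 lower, and from 10 FPKM the counts were 367, 228, 27 and 3; in both, 2 HSP90 cochaperones were higher. With 50% in place of 25%, 315 genes were higher and 147 lower. With a pseudocount of 0.1, 151 genes were at least 2-fold higher and 62 lower.

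Without the 4 genes, 3 HSF1 targets were higher. The median of the HSF regulator list turned from -0.13 to 0.078 both without Hsf1 and from a mean of 10 FPKM, and the median of the J-domain list turned to -0.088 under the same sum, to -0.003 under the sum without the 100 most abundant genes and to -0.014 without a filter. Fewer genes tested lower the counts under the stricter filters; for the other changes the cause was not tested. No paired analysis was possible because each group has 1 library. The unknown depth sets a limit for low values such as those of Hspd1.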

Other observations

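Hspb7, the small heat shock protein of heart and skeletal muscle, had 17.3 FPKM at control phosphate and 33.5 FPKM at high phosphate (log2 ratio 0.92). It was the 1 measured gene of the 3 listed small heat shock proteins, and the others, Hspb3 and Hspb9, lay at or below 0.5 FPKM in both libraries. Among the measured genes of the chaperone, HSF1 target and HSF1 regulator lists, several had higher log2 ratios than any of the 4 genes. They were Hspb7, Hmox1, Hsp90b1, Hspa5 and Plk1, from 0.69 to 0.98, Ruvbl2, listed at 0 in the control, and Dnajc2 (0.52). Dnajc15 (0.475) was barely above Hspd1 (0.474), and in listed level it was below, with changes of 40.6% for Dnajc15 and 44.8% for Hspd1.

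Some entries were listed at or near 0 for genes of general cell function: Hspbp1 and Gsk3a at 0 in both libraries, Bag6 at 0.78 and 0 FPKM, and Sec63 at 0.09 and 0.10 FPKM. Such values can be failed estimates, and the same limit applies to Dnajb1 at 0.47 and 0.01 FPKM.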
